A study of Caenorhabditis elegans with 16 samples.

Results

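Germ granule genes encode the proteins of P granules, the perinuclear RNA and protein condensates of the Caenorhabditis elegans germ line. The genes described here are pgl-1, pgl-2, pgl-3, glh-1, glh-2, glh-3, glh-4 and deps-1. They were taken by name: every row of the deposited table whose gene field holds one of these 8 symbols was a member, and this gave 10 transcripts of 8 genes among 26080 transcripts. The genes pgl-1 and pgl-3 were each listed with 2 transcripts, and the transcript of higher mean represents its gene unless the other is named. All 10 transcripts passed the filter of a mean normalized count of at least 1 and were tested.

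P granules lie on the cytoplasmic face of germ cell nuclei, over nuclear pores, and act in the small RNA pathways that survey transcripts leaving the nucleus. PGL-1 and PGL-3 are RNA-binding scaffold proteins that can self-assemble into granules, and PGL-2 is a member of the same family. The GLH proteins are DEAD-box RNA helicases related to Drosophila Vasa, and DEPS-1 is a P granule component required for normal PGL-1 granules. In these bulk libraries of whole worms, fewer germ cells and less RNA per germ cell cannot be told apart.

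Poly(A)-enriched mRNA of whole worms was sequenced in 16 libraries. The worms were L4 larvae when the treatment began, and they were collected after the recovery time. The paper proposes that some may have developed further and produced embryos by then. The strains were wild-type N2 and a pair of double mutants of the RNA-editing ADAR genes, BB4 and BB21. On chromosome I, BB4 carries adr-1(gv6) and BB21 carries adr-1(tm668), and on chromosome III, BB4 carries adr-2(gv42) and BB21 carries adr-2(ok735). The mutations are in every tissue, so an effect in the germ line cannot be told apart from one of other tissues. Heat-shocked worms were held at 34 °C in a water bath for 75 min, then for 20 min at room temperature and 3 h at 20 °C, while worms under standard conditions stayed at 20 °C. N2 and BB4 had 3 libraries in each condition and BB21 had 2, and BB4 and BB21 were joined as ADAR mutants (n = 5 per condition), as the study did. The labels call the replicates biological. The question asked of the germ granule genes was whether their level differed after heat shock, between ADAR mutants and N2, or in the response of the ADAR mutants against that of N2.

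Depth split the libraries into 2 sets that coincided with the endings of the sample titles. The 10 libraries with titles ending in 12_7 or 28_6 held 4699505 to 9624995 reads, and the other 6 held 30011732 to 35693369 reads. These reads were recovered from the normalized counts and summed over transcripts, so a read aligned to several transcripts can count more than once. The 2 sets are called the shallow and the deep libraries here, and depth and title ending cannot be told apart. The deep libraries were replicate 3 of N2 and BB4 and replicate 2 of BB21. No title ending of the deep libraries was shared between strains, and that of BB4 differed between standard conditions and heat shock. The normalized count of adr-1 was 1335 to 2683 in the 6 N2 libraries and 418 to 1068 in the 10 ADAR mutant libraries, and that of adr-2 was 732 to 1442 against 139.6 to 593, so both targeted genes were lower in every mutant library. The summed level of 9 heat shock marker genes was 4.87 to 11.1 times higher after heat shock in 6 of the 8 strain and replicate pairs. In the 28_6 libraries the ratio was 1.25 in N2 and 0.857 in BB4, so the library labelled BB4 heat shock, replicate 1, did not show the response of its label in these genes. Calls of the germ granule genes after heat shock, and the counts of some gene lists, are therefore also given without the 4 libraries of 28_6. This choice was made after seeing the data.

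The germ granule genes were all well measured. The lowest of the 160 library values rested on 118 recovered reads, for which counting error alone would be 9.21% if reads were counted independently. Each member's mean exceeded that of 82.6% to 98.7% of all transcripts in the table. Levels of different genes were compared per kilobase of exon, with lengths from the WBcel235 annotation. Under standard conditions in N2, pgl-1 stood highest at 2078 ± 184 normalized counts per kilobase (SD, n = 3). glh-1 followed at 1155 ± 68.5, then pgl-3 at 856 ± 119.2, glh-4 at 705 ± 246, deps-1 at 612 ± 85.6, glh-2 at 527 ± 126, pgl-2 at 471 ± 127 and glh-3 at 417 ± 208. The libraries of pgl-1 did not overlap with those of glh-1, nor those of glh-1 with those of pgl-3, and from pgl-3 downward each gene overlapped with the next. The order of means began with pgl-1 and glh-1 in all 4 groups. In heat-shocked ADAR mutants glh-1 (881 ± 104, n = 5) overlapped with the gene after it, glh-4 (586 ± 248). In ADAR mutants under standard conditions glh-1 (824 to 971) also overlapped with glh-4 (351 to 897), which ranked after pgl-3. In the deep BB21 libraries glh-4 exceeded glh-1, at 897 against 824 under standard conditions and 860 against 841 after heat shock.

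Ratios between family members differed with the library set. Per kilobase, pgl-3 stood at 0.335 ± 0.0423 of pgl-1 in the 6 deep libraries and at 0.410 ± 0.0448 in the 10 shallow ones (SD). The ratio of glh-4 to glh-1 was 0.957 ± 0.0908 in the deep and 0.448 ± 0.0471 in the shallow libraries, without overlap. The pgl-1 transcripts ZK381.4a and ZK381.4b kept a ratio of 1.89 ± 0.0675 over the 16 libraries, and the pgl-3 transcripts C18G1.4a and C18G1.4b a ratio of 1.15 ± 0.0513. The authors let reads align to several transcripts, so the transcripts of one gene share reads and are not independent measurements.

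**Figure D1:**
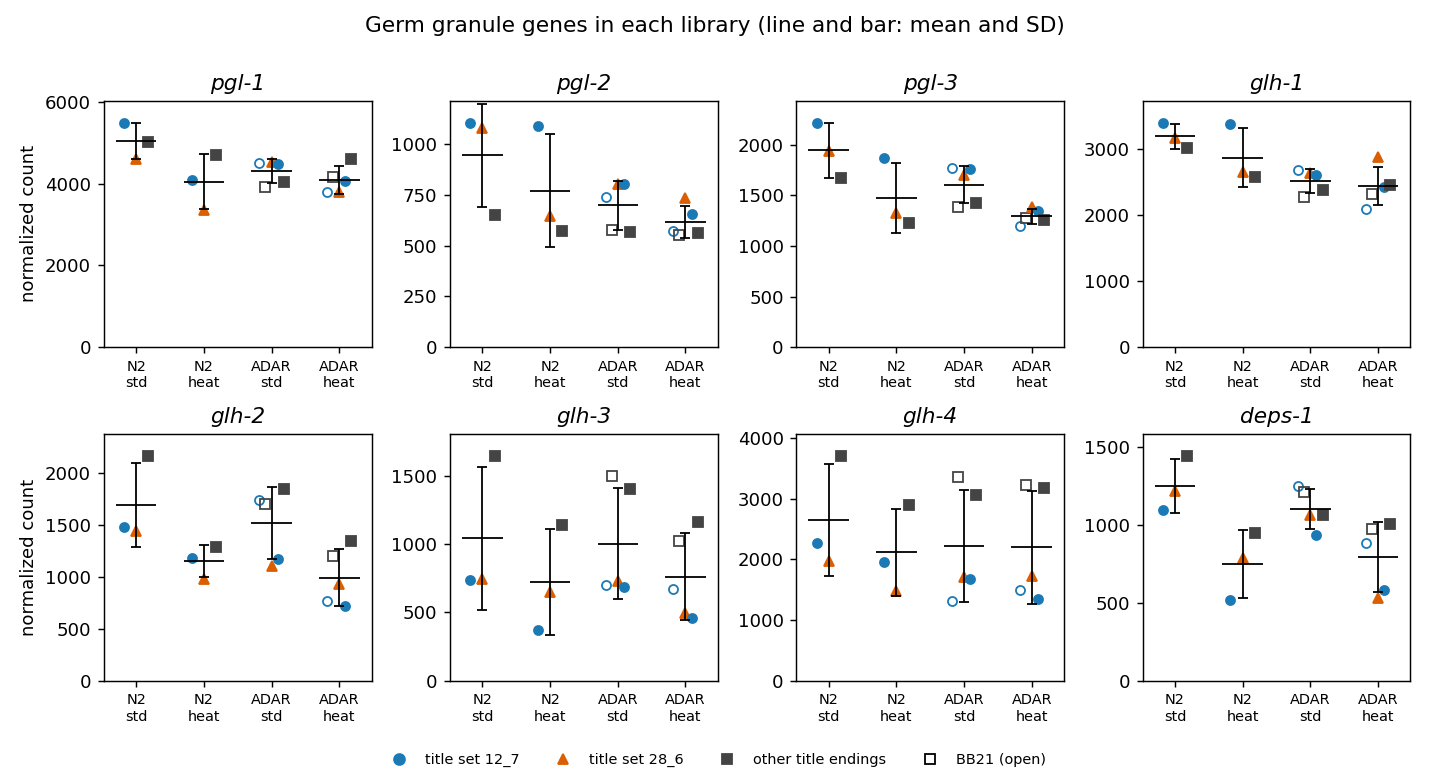
Normalized count (vertical axis, from 0) of the 8 germ granule genes in each library of the 4 groups, with std for standard conditions and heat for heat shock. Symbols give the title set, open symbols are BB21, and the line and bar are the mean and SD. The grey squares, the deep libraries, sit above every other point for glh-3 and glh-4, from 1024 and 2888 upward.

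Among the PGL genes, pgl-3 differed most against its spread after heat shock, and pgl-1 and pgl-2 were not called by any fit of heat shock. For pgl-3 (C18G1.4, chromosome V), the N2 libraries held 2217, 1944 and 1675 normalized counts of C18G1.4a under standard conditions and 1874, 1322 and 1229 after heat shock. In the ADAR mutants the same transcript held 1387 to 1767 (median 1698) under standard conditions in 5 libraries and 1195 to 1389 (median 1279) after heat shock. The groups overlapped by 1 pair of libraries in N2, and in the ADAR mutants only 1 heat shock library reached the lowest standard one, and it was the library labelled BB4 heat shock, replicate 1. The other transcript, C18G1.4b, separated fully in both genotypes, with 1482, 1676 and 1944 before against 1082, 1136 and 1405 after heat shock in N2, and 1216 to 1574 against 1073 to 1192 in the ADAR mutants. Its log2 fold change was -0.49 (SE 0.19) in N2 and -0.32 (SE 0.15) in the ADAR mutants. In limma, neither passed the adjustment over 24401 features (adjusted p = 0.169 and 0.233). The replicate block is a fit in which every heat shock library is set against its own standard partner, that of equal strain and replicate number. With it C18G1.4b fell in N2 (adjusted p = 0.0347) and stood at an adjusted p of 0.0529 in the ADAR mutants.

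The scaffold gene pgl-1 (ZK381.4, chromosome IV) was the most abundant of the 8 genes and differed little. Its N2 values were 5483, 4593 and 5029.6 under standard conditions and 4090.1, 3353 and 4690.0 after heat shock. In the ADAR mutants it held 3924 to 4536 (median 4489.8) before and 3794 to 4602 (median 4071) after heat shock. The log2 fold change was -0.33 (SE 0.18) in N2 and -0.07 (SE 0.14) in the ADAR mutants, where the 95% interval ran from -0.36 to 0.22. The pair ratios of heat shock to standard split by library set: all 5 shallow pairs lay below 1 (0.730 to 0.907), and the deep pairs lay at 0.932 in N2 and at 1.06 and 1.14 in BB21 and BB4. pgl-2 (B0523.3, chromosome III) went from 1103, 1079 and 651 to 1088, 646 and 574 in N2. The ADAR mutant libraries went from 567 to 803 (median 741) down to 551 to 736 (median 569.9). It was lower after heat shock in all 8 pairs, by ratios of 0.599 to 0.995, and its fitted change was -0.31 (SE 0.29) in N2 and -0.17 (SE 0.22) in the ADAR mutants.

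Among the GLH helicase genes, glh-2 (C55B7.1, chromosome I) had the largest difference after heat shock relative to its SE in the fit of 4 groups, in both genotypes. With the replicate block this held in the ADAR mutants, while in N2 the difference of glh-3 was larger relative to its SE. In N2 it held 1483, 1443 and 2164 under standard conditions and 1186, 985 and 1294 after heat shock, without overlap. BB4 went from 1110.0, 1175 and 1853 to 936, 718 and 1352, and BB21 from 1743 and 1706 to 769 and 1203. The ADAR mutant groups overlapped, since the deep heat shock libraries of BB4 and BB21 exceeded the shallow standard libraries of BB4, but every heat shock library was below its standard partner, at ratios of 0.441 to 0.843 over the 8 pairs. The log2 fold change was -0.54 (SE 0.30) in N2 and -0.62 (SE 0.23) in the ADAR mutants. The limma adjusted p was 0.341 and 0.123 without the replicate block, and 0.0596 and 0.0110 with it, so that glh-2 fell in the ADAR mutants with the block.

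glh-1 (T21G5.3, chromosome I), the helicase of the family with the highest mean per kilobase in every group, had the smallest difference of the 8 genes in N2. It held 3399.7, 3174 and 3023 in N2 under standard conditions and 3383, 2654 and 2574 after heat shock, and 2282 to 2688 (median 2606) against 2096 to 2885 (median 2428) in the ADAR mutants. The ranges overlapped in both genotypes, and the fitted changes were -0.17 (95% interval -0.55 to 0.22) and -0.05 (-0.35 to 0.25) on the log2 scale. glh-3 (B0414.6, chromosome I) was lower after heat shock in all 8 pairs, at ratios of 0.510 to 0.962. Its N2 values were 734, 746 and 1640.2 before and 374, 649 and 1137 after heat shock, and those of the ADAR mutants 686 to 1495 (median 731) before and 456 to 1162 (median 674) after. The deep libraries were the highest in every group, and the ranges of the groups overlapped. The log2 fold change was -0.57 in N2 and -0.41 in the ADAR mutants, with SEs of 0.50 and 0.39 in the fit of 4 groups and of 0.18 and 0.14 with the block, where the limma adjusted p was 0.0505 and 0.0602.

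glh-4 (T12F5.3, chromosome I) held 2260.4, 1967 and 3693 in N2 under standard conditions and 1963, 1484 and 2888 after heat shock. In the ADAR mutants it held 1314 to 3362 (median 1712) before and 1354 to 3224 (median 1725) after. It was lower in all 3 N2 pairs and in 2 of 5 mutant pairs, and its changes of -0.32 and -0.02 were below their SEs of 0.44 and 0.34. The values of glh-4 carry a limit of their own. The feature T08D2.3, annotated as a pseudogene on chromosome X in WBcel235, held 0.281 to 0.320 of the reads of glh-4 in every one of the 16 libraries (mean 0.301 ± 0.0106 SD). Whether the 2 share reads was not tested, since their sequences were not used here, and glh-4 is uncertain for that reason.

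deps-1 (Y65B4BL.2, chromosome I) encodes a protein needed for P granule assembly and had the largest difference of the 8 genes in N2. It held 1095, 1215 and 1440.3 under standard conditions and 517, 786 and 951 after heat shock, so that the 3 heat shock libraries lay below all standard ones. In BB4 it went from 1061, 935 and 1063 to 531, 582 and 1004, and in BB21 from 1248 and 1215 to 885 and 972. Only the deep BB4 library (ratio 0.944 to its partner) stayed near its standard level, and the other 7 pairs had ratios of 0.472 to 0.800. The log2 fold change was -0.77 (SE 0.29) in N2 and -0.52 (SE 0.23) in the ADAR mutants, with limma adjusted p values of 0.161 and 0.208. With the replicate block, deps-1 fell in both (adjusted p = 0.0228 and 0.0283). Without the 28_6 libraries the changes were -0.84 and -0.40, and the blocked adjusted p was 0.0372 in N2 and 0.103 in the ADAR mutants.

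**Figure D2:**
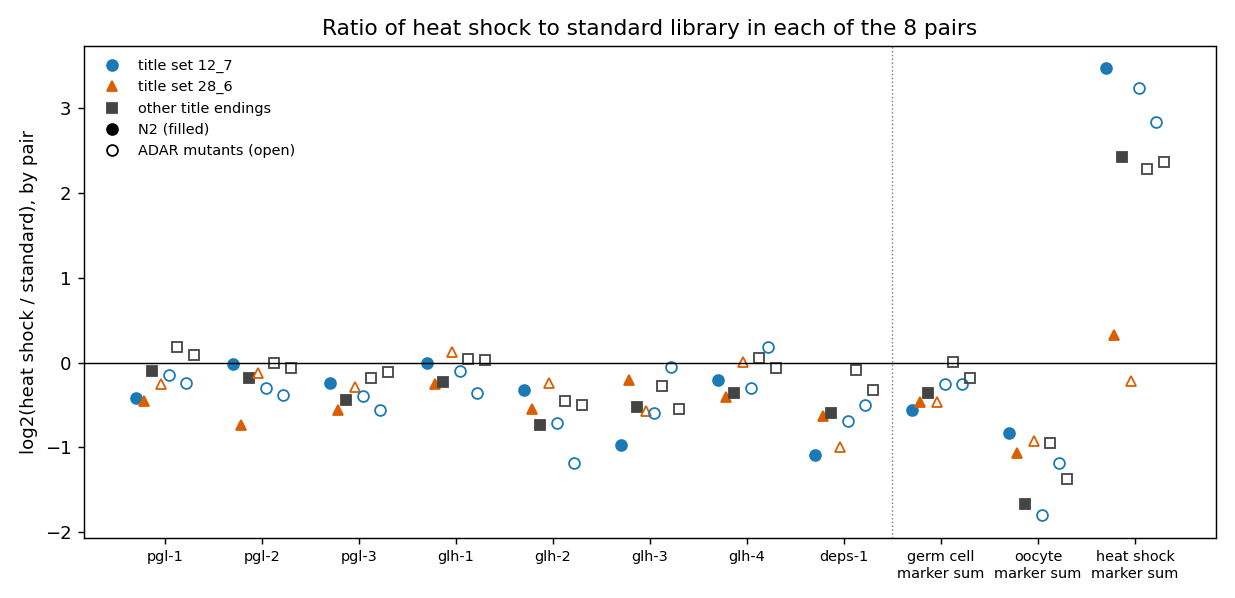
log2 of the ratio of the heat shock library to the standard library of the same strain and replicate (vertical axis) for the 8 germ granule genes and for the summed counts of 3 marker lists. Filled symbols are N2, open symbols are ADAR mutants, and shape gives the title set. All 8 points lie below 0 for pgl-2, pgl-3, glh-2, glh-3 and deps-1, the oocyte marker sums lie at ratios of 0.287 to 0.563, and the 28_6 pairs (triangles) lie at 1.25 and 0.857 for the heat shock markers.

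Heat shock was compared with standard conditions over all 10 transcripts, and none was called in either genotype by the limma fit of 4 groups at an adjusted p under 0.05, against 2.9% of all features in N2 (0.537% lower) and 7.4% in the ADAR mutants (2.39% lower). All 10 had a log2 fold change below 0 in both genotypes, which 47.9% of all features had in N2 and 45.4% in the ADAR mutants. The median over the members was -0.37 in N2 and -0.24 in the ADAR mutants, beside 0.04 and 0.07 over all features. Under quantile normalization, in which the median of all features moved to -0.06 and -0.07, the members' medians were -0.18 in both. At an unadjusted p under 0.05, 2 members were lower in N2 (deps-1 and C18G1.4b, background 7.6% lower) and 3 in the ADAR mutants (these and glh-2, background 7.59%). edgeR called none, with 0.156% of features lower in N2 and 1.95% in the ADAR mutants. DESeq2 called C18G1.4b in N2 (adjusted p = 0.0407) and no member in the ADAR mutants, with 2.52% and 4.28% of features lower. The heat shock libraries lay below all standard ones for pgl-1 ZK381.4b, pgl-3 C18G1.4b, glh-2 and deps-1 in N2, where 7.62% of all features did, and for C18G1.4b in the ADAR mutants, where 4.2% did. In all 8 pairs, heat shock was below standard for 5 of the 8 genes, pgl-3 with both its transcripts. The share over all features, which are transcripts and not genes, was 12.4%.

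The same strain and replicate number tied a heat shock library to its standard partner, and the fit with this block called more. In N2 deps-1 and pgl-3 C18G1.4b fell, and in the ADAR mutants glh-2 and deps-1 fell, while 9.91% and 9.75% of all features were called lower by that fit. The members' share, 2 of 10 in each genotype, is to be read against that background. With the title set as a term instead, 4 transcripts fell in N2 (pgl-3 C18G1.4b, deps-1, glh-3 and glh-2, limma adjusted p from 0.0205 to 0.0459). In the ADAR mutants 3 fell with that term (glh-2, pgl-3 C18G1.4b and deps-1, 0.00556 to 0.0401). The shares of all features called lower were 11.2% in N2 and 10.3% in the ADAR mutants. The term held the deep libraries as 1 set, so differences between their title endings were not adjusted for. Without the 28_6 libraries no member was called in the fit of 4 groups (0.0853% of features lower in N2 and 1.29% in the ADAR mutants). The blocked fit without them called deps-1 and glh-3 in N2 (adjusted p = 0.0372 and 0.0478) and glh-2 in the ADAR mutants (0.0150), where 7.77% and 7.52% of features were lower. None of these fits called a germ granule transcript higher after heat shock.

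**Figure D3:**
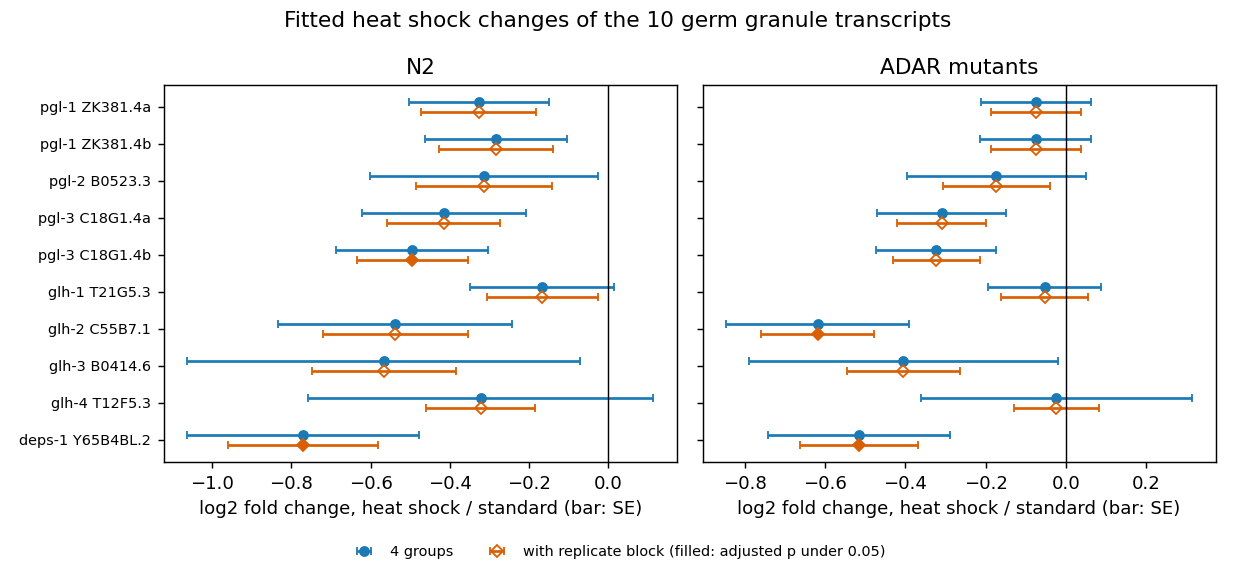
Fitted log2 fold change of heat shock against standard conditions (horizontal axis) with its SE for the 10 transcripts, in N2 and in ADAR mutants. Circles are the fit of 4 groups and diamonds the fit with the replicate block, filled where the adjusted p was under 0.05. Every estimate lies below 0, and the block narrows the bars of glh-3 and glh-4 most.

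ADAR mutants and N2 were compared in each condition to ask whether loss of both ADAR genes altered the germ granule genes. Among the deep libraries, strain and title ending cannot be told apart. Under standard conditions no member was called, and 0.0041% of all features was, which is 1 feature. At an unadjusted p under 0.05 there were 0 members and 3.88% of features in the limma fit of 4 groups. With the title set as a term in limma there were 3 members and 2554 of 24401 features, and no member was called. edgeR called no feature, and DESeq2 called 22 features and no member. All 10 transcripts had a log2 fold change below 0 (51% of all features did), with a median of -0.25 beside -0.01 over all features, and the median was -0.05 under quantile normalization. glh-1 came closest: the 3 N2 libraries held 3023 to 3399.7 and the 5 mutant libraries 2282 to 2688, a log2 difference of -0.34 (95% interval -0.69 to 0.0026, unadjusted p = 0.0515 in limma, adjusted p = 1). The mutant libraries also lay below all N2 libraries for both pgl-1 transcripts, with 3924 to 4536 against 4593 to 5483 for ZK381.4a, and 1.96% of all features were separated in this direction.

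After heat shock the mutant and N2 libraries overlapped for all 10 transcripts, where 0.77% of all features were separated lower and 0.607% higher. limma and edgeR called no feature, DESeq2 called 1, which was not a member, and 4.64% of features had an unadjusted limma p under 0.05. Of the 10 transcripts 6 had a difference below 0, as did 47.9% of all features, and the median difference was -0.06. The estimates ran from -0.27 for pgl-2 (95% interval -0.82 to 0.28) to 0.12 for glh-3 (-0.82 to 1.07).

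The difference between the heat shock responses was not called for any member or any feature by limma, edgeR or DESeq2, and 1.4% of features had an unadjusted p under 0.05. Its estimate (ADAR mutants minus N2) was above 0 for 9 of the 10 transcripts, with a median of 0.17, while 46% of all features lay below 0, and glh-2 was the exception at -0.08. The largest was 0.30 for glh-4 (95% interval -0.88 to 1.48), followed by 0.25 for deps-1 (-0.54 to 1.05) and for pgl-1 ZK381.4a (-0.22 to 0.73). Under quantile normalization the median was 0.0041. These intervals are from the fit of 4 groups, where the SE was 0.55 for glh-4, 0.63 for glh-3 and 0.37 for deps-1. With the block the SEs were 0.17, 0.23 and 0.24 around the same estimates. BB4 and BB21 were compared within each condition, and no member was called in either, with log2 differences from -0.36 for glh-2 to 0.13 for pgl-2 under standard conditions and from -0.45 for deps-1 to 0.23 for glh-1 after heat shock. limma called no feature between the 2 strains in either condition, and 0.197% and 0.512% of features had an unadjusted p under 0.05. The deep libraries of BB4 and BB21 also differed in title ending.

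More germ granule transcripts were called between the deep and the shallow libraries than in any comparison of conditions or strains. The comparison was added after seeing the data and was a limma fit that kept the 4 groups. glh-3 was 374 to 746 in the shallow and 1024 to 1640.2 in the deep libraries, and glh-4 was 1314 to 2260.4 against 2888 to 3693, without overlap for either. The log2 differences were 1.08 (SE 0.12, adjusted p = 6.58e-07) and 0.96 (SE 0.10, adjusted p = 3.26e-07). glh-2 at 0.50 and deps-1 at 0.38 were also higher in the deep libraries (adjusted p = 9.42e-04 and 0.0226), while pgl-2 at -0.45 and pgl-3 C18G1.4a at -0.23 were lower (0.00327 and 0.0407). The genes pgl-1 and glh-1 were not called, at 0.06 and -0.13. In this comparison 64.2% of all features were called, and 18.7% lay higher without overlap, so the 6 of 10 members called are near the background. What set the libraries apart was not tested.

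The proteins that join PGL and GLH in P granules were followed in a list of 26 partner genes, which had been chosen with earlier results of these data known. After heat shock in N2, 24 of the 26 had a log2 fold change below 0 (47.9% of all features) and 1 fell (0.537% of all features). The median was -0.75, beside -0.37 for the germ granule genes and 0.04 for all features. In the ADAR mutants 23 partners were below 0 (45.4% of all features) and 8 fell (2.39%), with a median of -0.61. The 8 were meg-1, meg-2, meg-3 (listed as gei-12), meg-4 (listed as C36C9.1), nos-2, spn-4, pos-1 and mex-1, and none rose. The MEG proteins are disordered proteins that set where P granules assemble in the early embryo, and spn-4, pos-1, mex-1 and nos-2 encode RNA-binding proteins or regulators of maternal mRNA and the germ line. With the replicate block, 15 partners fell in N2 and 14 in the ADAR mutants, against 9.91% and 9.75% of all features. Without the 28_6 libraries in the fit of 4 groups the counts were 0 and 7, against 0.0853% and 1.29% of all features. Single libraries set the count in N2, which was 4 when heat shock replicate 2 of N2 was left out and 0 when its standard replicate 1 or 2 or its heat shock replicate 1 was. The count in the ADAR mutants was 5 without BB21 standard replicate 1 or BB4 heat shock replicate 2, and 6 to 10 without any other library.

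The 4 meg genes had the largest decreases of the list in the ADAR mutants. meg-1 held 447 to 858 in the ADAR mutants under standard conditions (median 620.0) and 23.4 to 131 after heat shock (median 101), a log2 fold change of -3.05 (SE 0.47, limma adjusted p = 0.00302). meg-4 went from 212 to 349 down to 6.39 to 81.2, a change of -3.35 (adjusted p = 0.00267), and meg-3 from 985 to 1252 down to 61.2 to 360.1, a change of -2.83 (adjusted p = 0.00347). In N2 the same 3 genes had changes of -1.94, -1.95 and -1.84 and were not called (adjusted p from 0.0922 to 0.116), although all 3 were with the block (0.0267 to 0.0326). The difference between the genotypes' responses was not called for any of them. spn-4 fell in both, from 2910.4 to 3457 down to 805 to 1462 in N2 (-1.46, adjusted p = 0.0172) and from 2203 to 3121 down to 718 to 1389.7 in the ADAR mutants (-1.29, adjusted p = 0.00370). The most abundant partners were car-1, which encodes an RNA-binding protein of germline granules, and ife-1, an eIF4E-type cap-binding factor that binds PGL-1. car-1 had changes of -0.63 and -0.53 (adjusted p = 0.0981 and 0.0515), and ife-1 had 0.17 and 0.13.

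Z granules and Mutator foci lie next to P granules and hold small RNA inheritance and amplification factors. The list named for them holds genes of these pathways, and not all encode proteins of these granules. Of 11 listed genes 10 were found. None was called in N2 (median -0.64), and 1 fell in the ADAR mutants (median -0.28), the nucleotidyltransferase gene mut-2 at -0.85 (limma adjusted p = 0.0212), a call lost without BB21 standard replicate 1, BB21 heat shock replicate 2, BB4 standard replicate 1 or 2, or BB4 heat shock replicate 2. In that fit of 4 groups 2.39% of all features fell in the ADAR mutants. With the block 5 genes of the list fell in N2 and 2 in the ADAR mutants, against 9.91% and 9.75% of all features. The most abundant of the list, hrde-1 (listed as C16C10.3), a nuclear Argonaute gene, had changes of -0.60 and -0.36, and znfx-1 (listed as ZK1067.2), a helicase gene of Z granules, had 0.21 and 0.03.

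The lists of germ cell and oocyte markers also had medians below 0 after heat shock. Of 17 germ cell markers, none was called in either genotype, with medians of -0.53 in N2 and -0.33 in the ADAR mutants. With the block 6 and 4 of them were lower, against 9.91% and 9.75% of all features. The summed level of the germ cell markers in N2 was 19088 to 22680.0 under standard conditions and 13295 to 17717 after heat shock. In the ADAR mutants it was 15473 to 19404 against 11911 to 18497. The germ cell genes of highest mean were iff-1, at -0.34 and -0.23, and gld-1, a translational repressor of meiotic germ cells, at -0.56 and -0.40. The 12 oocyte markers had medians of -1.25 and -1.33, with 3 called lower in N2 and 11 in the ADAR mutants. Of all features 0.537% and 2.39% were called lower. The sum of the oocyte markers went from 54495 to 56632 down to 17678 to 30667 in N2. In the ADAR mutants it went from 41803 to 51266 down to 12461 to 24523. Among the oocyte markers oma-2, which encodes an oocyte maturation factor, fell in both genotypes, with log2 fold changes of -1.45 and -1.74. So did chs-1, the eggshell chitin synthase gene, at -1.26 and -1.11 (limma adjusted p of these 2 genes from 0.00302 to 0.0403). cbd-1, an eggshell gene, also fell in both, at -1.19 and -0.97, and cpg-2, the most abundant of the list, fell in the ADAR mutants (-1.26, adjusted p = 0.0474). puf-11 at -1.37 and egg-1 at -1.55 were among the lowest adjusted p values in the ADAR mutants (0.00907 and 0.0118). Without the 28_6 libraries 0 and 7 oocyte markers were called (0.0853% and 1.29% of all features lower). With the block as well, 10 and 12 were called (7.77% and 7.52% of all features lower). Leaving out 1 library gave 0 calls in N2 for each standard library and for heat shock replicate 1 and 1 to 4 for the others, and 7 to 11 in the ADAR mutants. The part of germ cell number, of oocyte content and of the stage at collection in the changes of the germ granule genes was not tested.

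Sperm and somatic markers were followed beside these lists. Of 10 sperm markers none was called in N2 (median 0.28), and 1 was lower in the ADAR mutants (median 0.10), fog-1 at -0.98 (adjusted p = 0.0192), which acts in the sperm fate of germ cells. With the block, 3 sperm markers rose and 2 fell in N2, and 1 fell in the ADAR mutants. That fit called 2335 of 24401 features higher in N2 and 3237 in the ADAR mutants, with 9.91% and 9.75% lower. The sperm phosphatase genes gsp-4 and gsp-3 had changes of 0.20 and 0.10 in N2. No gene of the lists for somatic gonad, body muscle, intestine, epidermis and neurons (5 each) was called in the fit of 4 groups, with medians in N2 of 0.82, 0.36, -0.74, 0.27 and 0.21 and in the ADAR mutants of 0.63, 0.60, -0.07, 1.49 and 0.18. With the block, up to 3 genes of a somatic list were called higher, and 2 intestine genes were lower in N2. Of the 9 heat shock markers, 3 rose in N2 and 6 in the ADAR mutants, all of them hsp-16 genes. Of 24401 features, 577 and 1223 rose in the same fit of 4 groups. Some hsp-16 genes are near-identical copies, and multiple alignment lets similar transcripts share reads. No gene of any list was called between ADAR mutants and N2 in either condition.

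**Figure D4:**
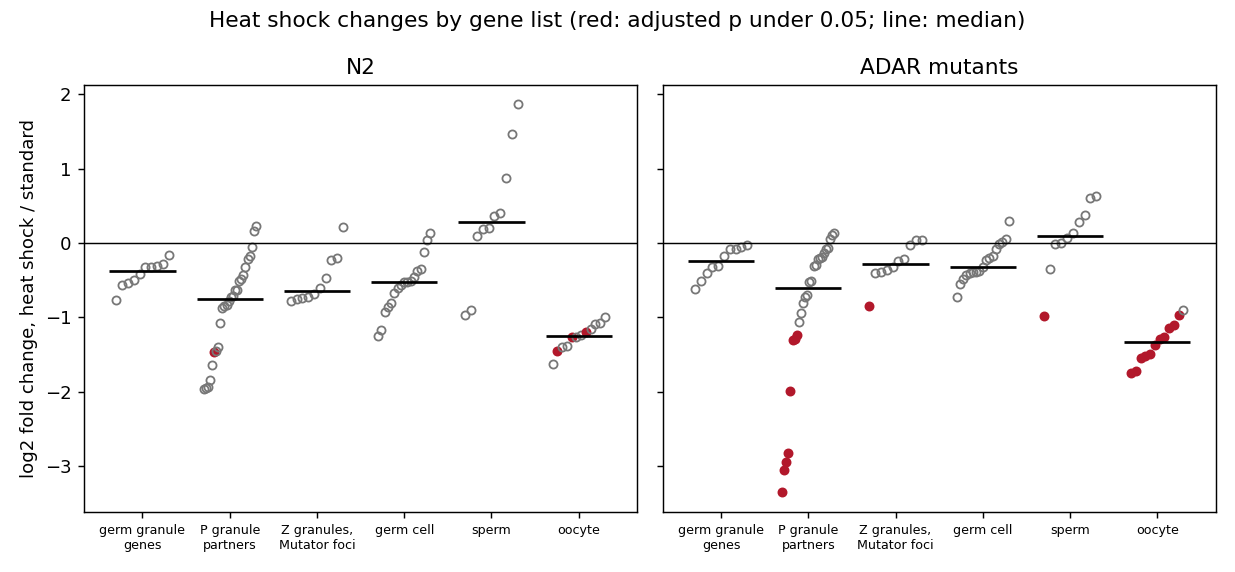
log2 fold change of heat shock against standard conditions (vertical axis) for each gene of the germ granule set and of 5 gene lists, in N2 and in ADAR mutants. Each point is a transcript, red where the adjusted p was under 0.05 in the fit of 4 groups, and the line is the median. The germ granule genes lie below 0, from -0.17 to -0.77 in N2 and from -0.02 to -0.62 in the ADAR mutants. The 4 meg genes of the P granule partners reach -2.83 to -3.35 in the ADAR mutants, and the oocyte markers have medians of -1.25 and -1.33.

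The members did not share one profile over the 16 libraries. Profiles were centred on their means and compared by the root mean square difference of log2 values with those of 18881 or 18882 other transcripts, as a description over libraries that share depth and condition. pgl-3 and glh-1 were among each other's nearer profiles (rank 96 and rank 38, difference 0.156), as were pgl-3 and pgl-2 (ranks 110 and 88, 0.160). glh-3 and glh-4 lay farther from pgl-1 (0.577 and 0.472) than glh-1 did (0.189). The 3 closest profiles to pgl-1 were those of ufd-2 (0.0929), mars-1 (0.108) and hoe-1 (0.109), and to glh-1 those of M03C11.7 (0.0904), cnx-1 (0.106) and him-19 (0.123). pgl-3 was closest to mdf-1 (0.0608), E01A2.2 (0.0716) and fipp-1 (0.0842), and pgl-2 to tufm-2 (0.0882), F18C12.3 (0.0964) and H35B03.2 (0.0991). glh-2 was closest to crn-3 (0.141), D2096.12 (0.152) and F25H5.5 (0.154), glh-3 to dnj-5 (0.119 and 0.128 for 2 transcripts) and tag-232 (0.127), and deps-1 to Y102E9.2 (0.111 and 0.127 for 2 transcripts) and pme-6 (0.135). For glh-4 these were T08D2.3 (0.0490), H17B01.4 (0.126) and dcr-1 (0.143), the Dicer gene. The median difference over all transcripts compared was 0.724 to 0.940 for these members.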

How the data were processed

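The deposited table gave, for 26080 transcripts and 16 libraries, the authors' normalized signal. Per the paper's methods, trimmed and collapsed 50 nt single reads were aligned with Bowtie to WS220 transcripts, allowing multiple alignments, and expression was taken from read counts (versions not given in the sources used here). The submitters' processing notes name DESeq2, but which factors normalized the deposited counts is not given in the sources used here. Multiple alignment lets similar transcripts share reads. The values came out as whole reads divided by 1 factor per library for 100% of values (tolerance 0.001).

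log2(normalized count + 1) of the 24401 transcripts with a mean of at least 1 was fitted with limma 3.58.1 (R 4.3.3, trend) over 4 groups, with Benjamini-Hochberg adjustment and a call at an adjusted p under 0.05. Fold changes are on this scale. edgeR 4.0.16 and DESeq2 1.42.0 on recovered reads, other scalings, filters and sample choices were alternatives. The fit was tested on simulated data.

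The labels give heat shock and standard libraries the same strain and bio replicate number. Partners also share a title ending, except those of BB4 replicate 3. Deviations of partners from group means correlated at 0.385 to 0.822 in the 8 pairs, and in 3 pairs another library correlated better. Partners were always of the same depth set, so pairing by replicate number cannot be told apart from depth by these correlations. The fit with the replicate block was run as an alternative.

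The 8 members and the 11 gene lists were chosen with earlier results of these data known. Every member was named, with the 3 closest profiles of each. Of the germline lists the 2 genes of highest mean and up to 4 called genes by lowest adjusted p were named, and the other 4 called P granule partners after their values were seen. The somatic and heat shock lists are given by counts. Of the 26080 names, 25343 matched RefSeq WBcel235, which gave current symbols and chromosomes, while exon lengths came from the Ensembl annotation of the same assembly. No coordinates are given, since the table used WS220.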

Additional observations from a re-analysis of the deposited data

How the results depend on the processing

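Leaving out each of the 16 libraries in turn, the number of members called stayed between 0 and 0 in all 5 comparisons. With the replicate block, 2 members were called in N2 and 2 in the ADAR mutants. Blocked counts were 2 and 3 with edgeR, 2 and 4 with TMM scaling, 2 in the ADAR mutants with quantile normalization, and 2 and 1 without the 28_6 libraries. The title set as a term gave 4 and 3, and DESeq2 gave 1 in N2. The block changed no other member's call. The calls over all features depended on single settings. In N2 708 were called, against 396 with edgeR and 2076 with DESeq2. The N2 count was 0 without the 12_7 libraries, with only the groups compared or with BB21 alone as ADAR mutant. In the ADAR mutants 1805 were called, against 0 without the 12_7 libraries, with BB4 alone or with BB21 alone. Features called lower in N2, 131 in all, were 0 without N2 standard replicate 1 or 2 and 472 without N2 heat shock replicate 2. P granule partners called ranged over all alternatives from 0 to 17 in N2 and from 0 to 14 in the ADAR mutants.

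Signs reversed only in estimates not called, in 52 of 1000 log2 fold changes under other settings, while 920 kept sign and call and 28 newly passed the threshold. The values after heat shock against standard conditions follow. In N2, glh-1 stood at 0.00081 with quantile normalization, with or without the block. In the ADAR mutants, glh-4 stood at 0.0036 with quantile normalization, 0.060 with BB21 alone and 0.0027 without the 12_7 libraries. glh-1 stood at 0.022 with BB4 alone, 0.066 without 12_7 and 0.036 in the deep libraries alone. pgl-1 ZK381.4a stood at 0.0052 and ZK381.4b at 0.0081 without 12_7, and both at 0.14 in the deep libraries alone.

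For ADAR mutants against N2 under standard conditions, glh-3 stood at 0.14 and glh-2 at 0.042 with quantile normalization, at 0.085 and 0.049 with BB21 alone, and glh-3 at 0.059 without 12_7. After heat shock, BB4 alone gave glh-4 -0.060, pgl-1 ZK381.4b 0.0032, glh-3 -0.027 and deps-1 -0.11, and BB21 alone gave pgl-1 ZK381.4a -0.0087. Without 12_7 the values were pgl-1 ZK381.4b 0.052, pgl-2 0.0063, glh-3 -0.038, pgl-3 C18G1.4a 0.036 and C18G1.4b 0.042, deps-1 -0.11 and glh-2 0.027. In the deep libraries alone they were pgl-1 ZK381.4a -0.098, glh-3 -0.061, pgl-3 C18G1.4a 0.045 and C18G1.4b 0.046. glh-4 stood at -0.17 in the shallow libraries alone, -0.054 with the title set as a term, -0.021 with that term in edgeR and -0.16 without 28_6, where pgl-1 ZK381.4a stood at -0.077.

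For the difference of the responses, quantile normalization, with or without the block, gave glh-1 -0.036, glh-3 -0.043 and pgl-3 C18G1.4a -0.051. glh-2 stood at 0.068 with BB4 alone, 0.24 without 12_7 and 0.26 in the deep libraries alone, glh-3 at -0.097 without 12_7, pgl-3 C18G1.4a at -0.015 in the shallow libraries alone and pgl-2 at -0.084 without 28_6, with or without the block. Leaving out 1 library reversed 38 of 800 estimates. For heat shock in the ADAR mutants these ranged from -0.19 to 0.15 for glh-4 and from -0.12 to 0.00015 for glh-1. For mutants against N2 they ranged under standard conditions from -0.23 to 0.35 for glh-3 and from -0.27 to 0.021 for glh-2, and after heat shock from -0.22 to 0.26 for glh-4, -0.15 to 0.035 for pgl-1 ZK381.4b, -0.10 to 0.14 for ZK381.4a, -0.46 to 0.0054 for pgl-2, -0.27 to 0.53 for glh-3, -0.29 to 0.018 for pgl-3 C18G1.4a, -0.16 to 0.025 for C18G1.4b and -0.17 to 0.27 for deps-1. For the difference they ranged from -0.042 to 0.42 for pgl-2, -0.24 to 0.56 for glh-3, -0.013 to 0.29 for pgl-3 C18G1.4a and -0.27 to 0.026 for glh-2. The cause of these reversals was not tested. The lowest count of a member was 118 reads.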
